A study of Mus musculus with 10 samples.

Results

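The genes described here are 10 factors of the dorsal spinal cord and of sensory neurons, read in sorted cells of the motor neuron lineage: Prrxl1, Tlx1, Tlx3, Lmx1b, Lbx1, Pou4f1, Pou4f2, Barhl1, Barhl2 and Gsx2. They are 10 of 48974 genes with a value, and 4 of them (Prrxl1, Lmx1b, Pou4f1 and Pou4f2) passed the filter on low counts, among 17838 genes tested. Prrxl1 was selected on its own difference between the groups compared here, so that its values are given as a description, with no test. The other members were listed for their known role. The question was whether they move with Prrxl1, across samples and between the groups.

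RNA was sequenced from YFP-positive cells sorted from mouse spinal cord at e10.5, in 5 control and 5 cdKO samples. Both groups carried 1 copy of Olig2-Cre and of the Rosa26R-YFP reporter (each +/-). The Onecut genes Oc1 and Oc2 were both +/Flox in control embryos and both -/Flox in cdKO embryos. All samples thus carry Cre and floxed alleles, and the controls can lose 1 copy of Oc1 and of Oc2 in the same lineage. Cre is driven by Olig2, a gene of motor neuron progenitors that is also transiently active in the progenitors of V3 interneurons, so YFP marks both lineages. Nothing in the labels says whether a sample is 1 embryo or a pool, and the p-values below measure only the spread between these samples. The deposited totals ranged from 63932395 to 107709534 counts per sample. In cdKO sample 5, 198569 exon bins (non-overlapping parts of exons) held counts, against 243970 to 271591 in the other samples.

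In the dorsal spinal cord, early-born neurons are allocated to classes by combinations of homeodomain factors. Lbx1 marks the later, ventral group of dorsal classes, Tlx1 and Tlx3 select a glutamatergic fate, Lmx1b marks the dI5 class, Pou4f1 (Brn3a) and Pou4f2 (Brn3b) mark dorsal interneurons and sensory neurons, and Barhl1 and Barhl2 act in the dI1 class. Gsx2 acts in dorsal progenitors. Prrxl1, also named Drg11, is a paired-like homeodomain factor of dorsal root ganglion neurons and of the dorsal horn neurons they contact.

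Prrxl1 (ENSMUSG00000041730) lies on the plus strand of chromosome 14 of GRCm38, at chr14:32599407-32649246. Of its 1619 counts, 578 fell on exons 3 to 6 and 799 on exon 7 of one annotated transcript with 7 exons. Another 209 lay before exon 3, part of them before the first exon of this transcript, and 33 lay after exon 7. The sequences of exons 3 to 6, which are coding throughout, are shown because they separate reads over the coding part from reads over the long last exon. They were taken from the GENCODE M21 sequence of this transcript, split at its exon bounds on GRCm38, 5′ to 3′ on the plus strand. The 18 capitals in exon 5 encode the core of the third helix of the homeodomain, which contacts DNA.

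Prrxl1 exon 3, chr14:32603896-32603993: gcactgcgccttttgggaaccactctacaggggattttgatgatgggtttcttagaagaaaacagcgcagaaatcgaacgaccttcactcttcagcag

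Prrxl1 exon 4, chr14:32605218-32605319: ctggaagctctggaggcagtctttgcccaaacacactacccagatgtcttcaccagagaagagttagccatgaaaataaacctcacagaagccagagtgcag

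Prrxl1 exon 5, chr14:32608076-32608254: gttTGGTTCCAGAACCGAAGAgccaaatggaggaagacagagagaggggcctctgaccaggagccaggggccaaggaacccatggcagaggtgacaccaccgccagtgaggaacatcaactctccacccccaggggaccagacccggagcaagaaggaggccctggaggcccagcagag

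Prrxl1 exon 6, chr14:32608341-32608453: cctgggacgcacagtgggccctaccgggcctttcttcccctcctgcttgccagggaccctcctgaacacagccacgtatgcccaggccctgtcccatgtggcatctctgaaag

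Prrxl1 had 111, 64, 31, 32 and 24 counts in control samples 1 to 5, and 492, 49, 249, 412 and 155 counts in cdKO samples 1 to 5. As CPM (counts scaled to a common library size, with TMM factors for composition), these were 1.11, 0.614, 0.352, 0.434 and 0.355 in controls and 6.25, 0.583, 3.06, 4.91 and 3.05 in cdKO samples. Thus 4 of 5 cdKO samples lay above every control, and cdKO sample 2 lay among the controls, below control samples 1 and 2. The mean was 0.574 CPM ± 0.320 (SD, n = 5) in controls and 3.57 CPM ± 2.15 (SD, n = 5) in cdKO samples. The log2 fold change of the edgeR fit was 2.63 with a standard error of 0.58, a fold of 6.19. In sorted bulk samples, a larger share of cells with the transcript and more transcript per cell cannot be told apart.

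The difference was present over the coding exons. Exons 3 to 6 together held 41, 26, 10, 5 and 7 counts in control samples 1 to 5, and 179, 20, 112, 171 and 7 in cdKO samples 1 to 5. The last exon of that transcript, of 1568 bases, held 59, 29, 20, 17 and 9 counts in controls and 228, 29, 115, 163 and 130 in cdKO samples. cdKO sample 5 was therefore as low as the controls over the coding exons and high over the last exon. That exon took 83.9% of its Prrxl1 counts, against 37.5% to 64.5% in the other samples. The 95% exact binomial interval, 77.1% to 89.3%, treats counts as independent. They are not where a read crosses several bins and is counted in each, as over the short exons. Counted on the exons before the last covered one, the log2 fold change was 2.61 ± 0.77 (SE), and on that last exon alone 2.63 ± 0.59 (SE). On the exons before it, cdKO samples 2 and 5 had 0.238 and 0.236 CPM, within the control range of 0.114 to 0.522 CPM, so that 3 of 5 cdKO samples lay above every control.

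**Figure D1:**
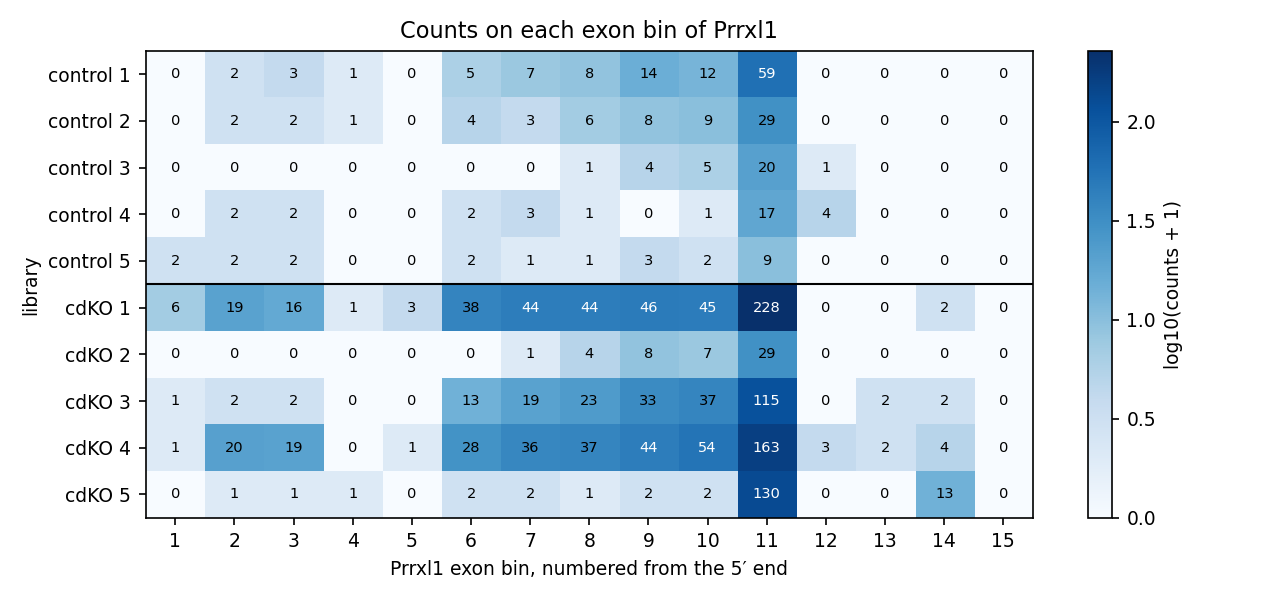
Counts on each of the 15 exon bins of Prrxl1 (columns, numbered from the 5′ end) in each library (rows, 5 control above the line and 5 cdKO below). Numbers are counts and the shade is log10(counts + 1). Bins 7 to 10 are exons 3 to 6 and bin 11 is the last exon of the transcript of 7 exons, which holds 130 of the 155 counts of cdKO 5.

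Of the POU factors, Pou4f1 (ENSMUSG00000048349, chr14:104461676-104467999, minus strand) had 0.462, 0.115, 0.239, 0.285 and 1.08 CPM in control samples 1 to 5 and 0.190, 0.50, 0.442, 0.525 and 4.19 CPM in cdKO samples 1 to 5. The groups overlapped, and cdKO sample 5 alone stood above all controls. Its log2 fold change was 1.42 ± 0.84 (SE), with an adjusted p of 0.960 (edgeR quasi-likelihood test, Benjamini-Hochberg over all genes tested), and it was -0.05 without cdKO sample 5. Of its 523 counts, 83.9% fell on the last exon, which is 3′ untranslated, and 64 on the coding exons.

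Pou4f2 (ENSMUSG00000031688, chr8:78433010-78436645, minus strand) had 0.783, 0.086, 0, 0.014 and 0.133 CPM in controls and 0.432, 0.143, 0.639, 0.584 and 2.97 CPM in cdKO samples. The groups overlapped through control sample 1, which was above all cdKO samples but the fifth. The log2 fold change was 2.20 ± 1.10 (SE), with an adjusted p of 0.939 in the same edgeR test. It was 1.11 without cdKO sample 5 and 3.999 without control sample 1. Nearly all counts, 387 of 395, lay on exon 2.

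Lmx1b (ENSMUSG00000038765, chr2:33560965-33640511, minus strand) had 0.201, 0.077, 0.159, 0.041 and 0.842 CPM in controls and 0.267, 0.250, 0.258, 0.298 and 0.414 CPM in cdKO samples. All cdKO samples lay between the highest control, sample 5, and the other 4 controls. The log2 fold change was 0.18 ± 0.71 (SE), with an adjusted p of 0.999 in the same edgeR test. It was 1.29 without control sample 5, with an adjusted p of 0.909. Of the 57 counts in control sample 5, 46 fell on the internal exons, where a read that crosses several short bins is counted in each.

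The other 6 members were at or near 0. Tlx1, Lbx1 and Barhl2 had at most 3 counts in every sample, the number that sets the floor here, equal to 0.0288 to 0.0591 CPM depending on the sample and covering counting error only. Tlx3 had 19 counts in all samples together, of which 11 came from cdKO sample 3 and lay on all 3 of its exons (5, 3 and 3 counts). Barhl1 had 10 counts in all. Gsx2 had 56 counts, 33 of them in control sample 5, 9 in control sample 4, 8 in control sample 2 and 6 in cdKO sample 3, with 0 in the other 6 samples. Lbx1 and the Tlx genes were thus not detected at this depth beyond 3 counts each in cdKO samples 1 and 4, where Prrxl1 was highest.

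**Figure D2:**
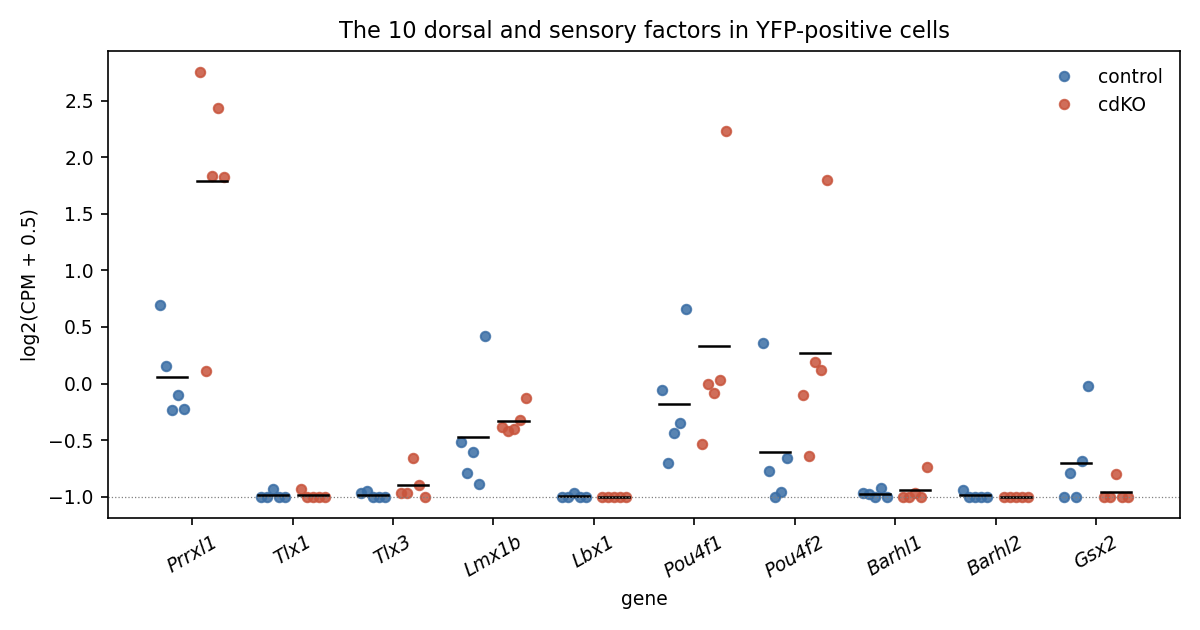
Level of each of the 10 genes, as log2(CPM + 0.5), in 5 control (blue) and 5 cdKO (red) samples. Points are samples, in order of replicate number within a group, black bars are means, and the dotted line is 0 CPM. Prrxl1 is above all controls in 4 of 5 cdKO samples, and the high cdKO point of Pou4f1 and of Pou4f2 is the same library, cdKO 5.

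Per kilobase of exon, the mean levels were 0.163 CPM in controls and 1.01 CPM in cdKO samples for Prrxl1, 0.0933 and 0.250 for Pou4f1, 0.0634 and 0.298 for Pou4f2, and 0.0541 and 0.0609 for Lmx1b. All were low beside Isl1, a factor of motor neurons and of sensory neurons, at 56.8 and 32.0 CPM per kilobase on the same scale. In the edgeR test 0 of 17838 genes had an adjusted p under 0.05 (0%), and 891 (4.99%) had an unadjusted p under 0.05. No member was called, and none of the 3 tested members other than Prrxl1 reached an unadjusted p under 0.05 in this fit. Under 6 of the alternatives Pou4f2 did, with a lowest unadjusted edgeR p of 0.00357 (without control sample 1), and Lmx1b and Pou4f1 did under 1 each, without control sample 5 (unadjusted edgeR p of 0.0476 and 0.0366). No adjusted p of these 3 genes was under 0.05 in any alternative. The DESeq2 Wald test called 20 genes, with 1 member among them, Prrxl1, and limma-voom called 3 genes and no member. Since Prrxl1 was chosen on this contrast, its call is a description only.

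Whether the members follow Prrxl1 was examined on deviations from each group's mean of log2(CPM + 0.5), since the difference between the groups had chosen Prrxl1. Pou4f2 had a Pearson's r of 0.41 (exact two-sided permutation p = 0.350) and a Spearman's rho of 0.35 (p = 0.380, exact permutation) over 10 samples. Without the 2 samples farthest from the Prrxl1 median, cdKO samples 1 and 4, its r was 0.80 (exact permutation p = 0.115). Without cdKO sample 2 it was -0.01, so that the sign rested on this sample. Without cdKO sample 5 it was 0.65 (exact permutation p = 0.0399 unadjusted and 0.609 adjusted). Pou4f1 had r = -0.10 (exact permutation p = 0.786) and rho = -0.25 (exact permutation p = 0.544), and r was 0.33 without the same 2 samples. Lmx1b had r = -0.05 (exact permutation p = 0.805) and rho = 0.10 (exact permutation p = 0.842), and r was -0.02 without them. For each of these 3 genes the adjusted p of r over all 17837 genes was 0.9997, as it was for all genes named below.

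Pooled over both groups, as a description, r with Prrxl1 was 0.64 for Pou4f2, 0.19 for Pou4f1 and 0.13 for Lmx1b. Among themselves, r within groups was 0.76 for Pou4f1 and Pou4f2, 0.58 for Lmx1b and Pou4f1, and 0.25 for Lmx1b and Pou4f2. The value for Pou4f1 and Pou4f2 rested on cdKO sample 5, the highest for both, and was 0.20 without it. That for Lmx1b and Pou4f1 was 0.54 to 0.86 with 1 sample left out, and both genes were highest in sample 5 of each group. That for Lmx1b and Pou4f2 was 0.14 to 0.78 with 1 sample left out, highest without control sample 5. Over all genes, 0 of 17837 (0%) were called for correlation with Prrxl1 and 741 (4.15%) had an unadjusted p under 0.05, none of them a member.

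**Figure D3:**
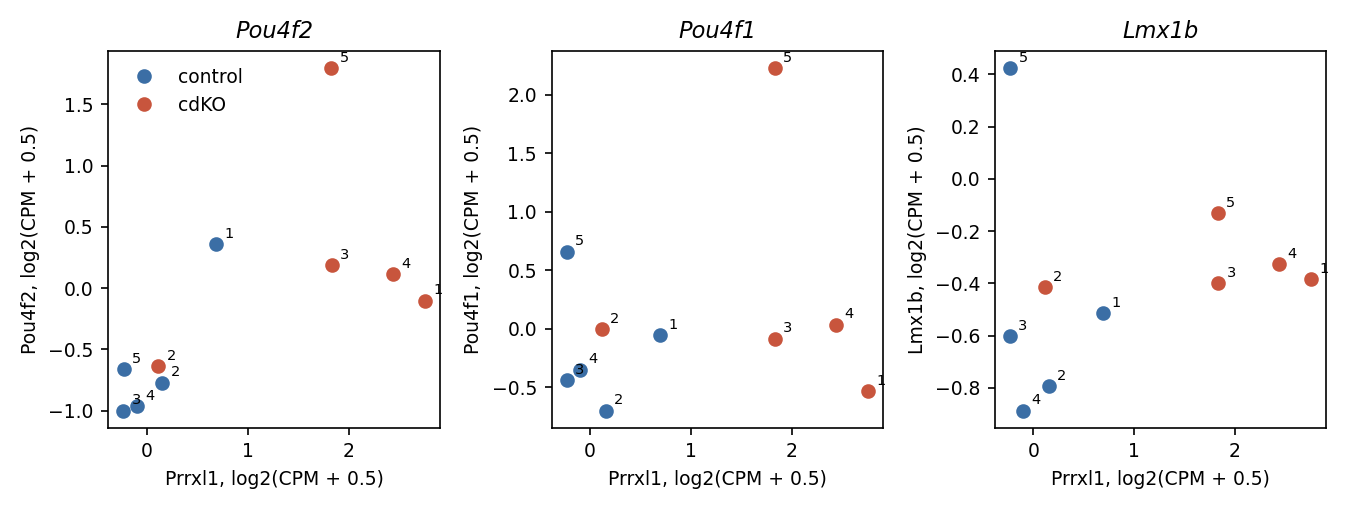
Prrxl1 on the horizontal axis against Pou4f2, Pou4f1 and Lmx1b on the vertical axes, all as log2(CPM + 0.5), for control (blue) and cdKO (red) samples labelled with their replicate number. The Prrxl1-high samples cdKO 1 and 4 are not the highest for any of the 3 genes, and cdKO 5 is the highest for Pou4f1 and Pou4f2.

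Among genes with a mean of at least 1 CPM, those most like Prrxl1 within the groups were Tmem163 (r = 0.93), Rab3b (0.90), Fam84a (0.88), Ldhb (0.87) and Col1a2 (0.86), and those most unlike it were Col27a1 (-0.96) and B230323A14Rik (-0.89). Tmem163 followed the same order as Prrxl1 within each group (rho = 1), at 14.7, 10.3, 7.19, 8.58 and 7.43 CPM in controls and 13.7, 5.82, 11.5, 12.9 and 11.3 CPM in cdKO samples. Its exact permutation p of 6.94e-05 is the smallest that the arrangements within groups can give. Its highest level was in a control sample, control sample 1, unlike that of Prrxl1.

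Lists of genes of the cells in which the members are known were read in the same fit. Of 15 genes of dorsal interneurons 8 were tested, of which 6 had a log2 fold change above 0 and 2 below, with a median of 0.32, against -0.02 over all genes tested. The 15 genes summed to 30.1 to 51.9 CPM in controls and 31.7 to 48.0 CPM in cdKO samples. Most of this came from Sall3, Foxp2 and Lhx1, the last named after its values were seen. The genes not tested (Lhx2, Lhx9, Foxd3, Pax2, Ptf1a, Wt1 and Dmrt3) each had a mean of at most 0.193 CPM in either group. The sum therefore says little about these genes, and whether it came from dorsal interneurons was not tested. The most abundant genes of the list, Sall3 and Foxp2, had log2 fold changes of -0.39 ± 0.33 and -0.45 ± 0.43 (SE). Of 15 genes of dorsal progenitors and the roof plate 7 were tested, 6 above and 1 below 0, with a median of 0.56. This list summed to 5.84 to 12.6 CPM in controls and 8.75 to 14.97 CPM in cdKO samples. Wnt1, a roof plate signal, was at 1.27 CPM ± 0.347 and 2.62 CPM ± 1.23 (SD, n = 5), with an adjusted p of 0.939 in the edgeR test. Like Prrxl1, it lay above every control in all cdKO samples but sample 2. Its r with Prrxl1 within groups was 0.54 (exact permutation p = 0.244). Without cdKO samples 1 and 4 that r was 0.90 (unadjusted exact permutation p = 0.0278). In that setting 897 of 17837 genes had an unadjusted exact permutation p under 0.05, and 0 were called.

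Of 15 genes of sensory neurons of the dorsal root ganglia 12 were tested, 6 above and 6 below 0, with a median of -0.02. Their summed level was 185 to 254 CPM in controls and 190 to 276 CPM in cdKO samples, most of it from Neurod4 and Prph, which are active in these cells in both groups. Prph, an intermediate filament of peripheral neurons and motor neurons, was at 39.0 CPM ± 31.0 and 71.3 CPM ± 44.3 (SD, n = 5). Neurod4 was at 93.7 CPM ± 40.1 and 83.7 CPM ± 42.3 (SD, n = 5). Of 10 genes of neural crest and peripheral glia 5 were tested, with a median of -0.22. They summed to 110 to 575 CPM in controls and 183 to 931 CPM in cdKO samples, most of it from Fabp7, a lipid-binding protein of glia and of neural progenitors, at 205 CPM ± 167 and 379 CPM ± 315 (SD, n = 5) and highest in cdKO sample 5, with an adjusted p of 0.971 in the edgeR test. Sox10, which defines these cells, was at most 0.267 CPM in any sample. In none of these lists was a gene called. The 10 motor neuron genes, all tested, had a median of 0.01 and summed to 672 to 798 CPM in controls and 392 to 855 CPM in cdKO samples.

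Of 10 genes of the excitatory dorsal horn programme 8 were tested, with a median of 0.10. Tac1 encodes the precursor of substance P. It was at 0.191, 0.240, 0.080, 0.041 and 0 CPM in controls and 5.55, 1.08, 4.53, 1.01 and 20.1 CPM in cdKO samples. Its log2 fold change was 5.81 ± 1.04 (SE), with an adjusted p of 0.217 in the edgeR test. Unlike Prrxl1, Tac1 was above all controls in cdKO sample 2 too, and its r with Prrxl1 within groups was 0.33 (exact permutation p = 0.542). Ebf1 and Ebf2, the most abundant genes of the list, had log2 fold changes of -0.60 ± 0.30 and -0.26 ± 0.35 (SE). Cck encodes the neuropeptide cholecystokinin. It was at 0.0887 to 0.380 CPM in controls and 0.442 to 0.985 CPM in cdKO samples. The log2 fold change of Cck was 1.22 ± 0.51 (SE), with an adjusted p of 0.939 in the edgeR test. Cck was named after its values were seen, and the share of all genes whose groups do not overlap is not given here.

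No gene of these lists was called for correlation with Prrxl1 within groups. The median r was 0.076 over the 8 dorsal interneuron genes and -0.0068 over the 12 sensory neuron genes, against -0.021 over all genes. It was 0.072 over the 7 genes of dorsal progenitors and the roof plate and -0.012 over the 5 neural crest genes. Higher medians were those of the 8 excitatory genes (0.32), the 10 motor neuron genes (0.21) and the 8 mesenchyme genes (0.14). Over all 17837 genes, 471 had a positive and 270 a negative r at an unadjusted exact permutation p under 0.05 (4.15% together). At an unadjusted exact permutation p under 0.05, r was positive for 1 dorsal interneuron gene (Lhx5), 2 sensory neuron genes (Ntrk2 and Prph), 1 excitatory gene (Slc17a6), 1 motor neuron gene (Slc5a7) and 1 mesenchyme gene (Col3a1), and negative for Nkx2-9 and Kdr. All but Prph, Col3a1, Nkx2-9 and Kdr were named after their values were seen. Lhx5 had r = 0.75 and rho = 0.75, Prph r = 0.72 and rho = 0.75, and Slc17a6 r = 0.72 but rho = 0.30.

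**Figure D4:**
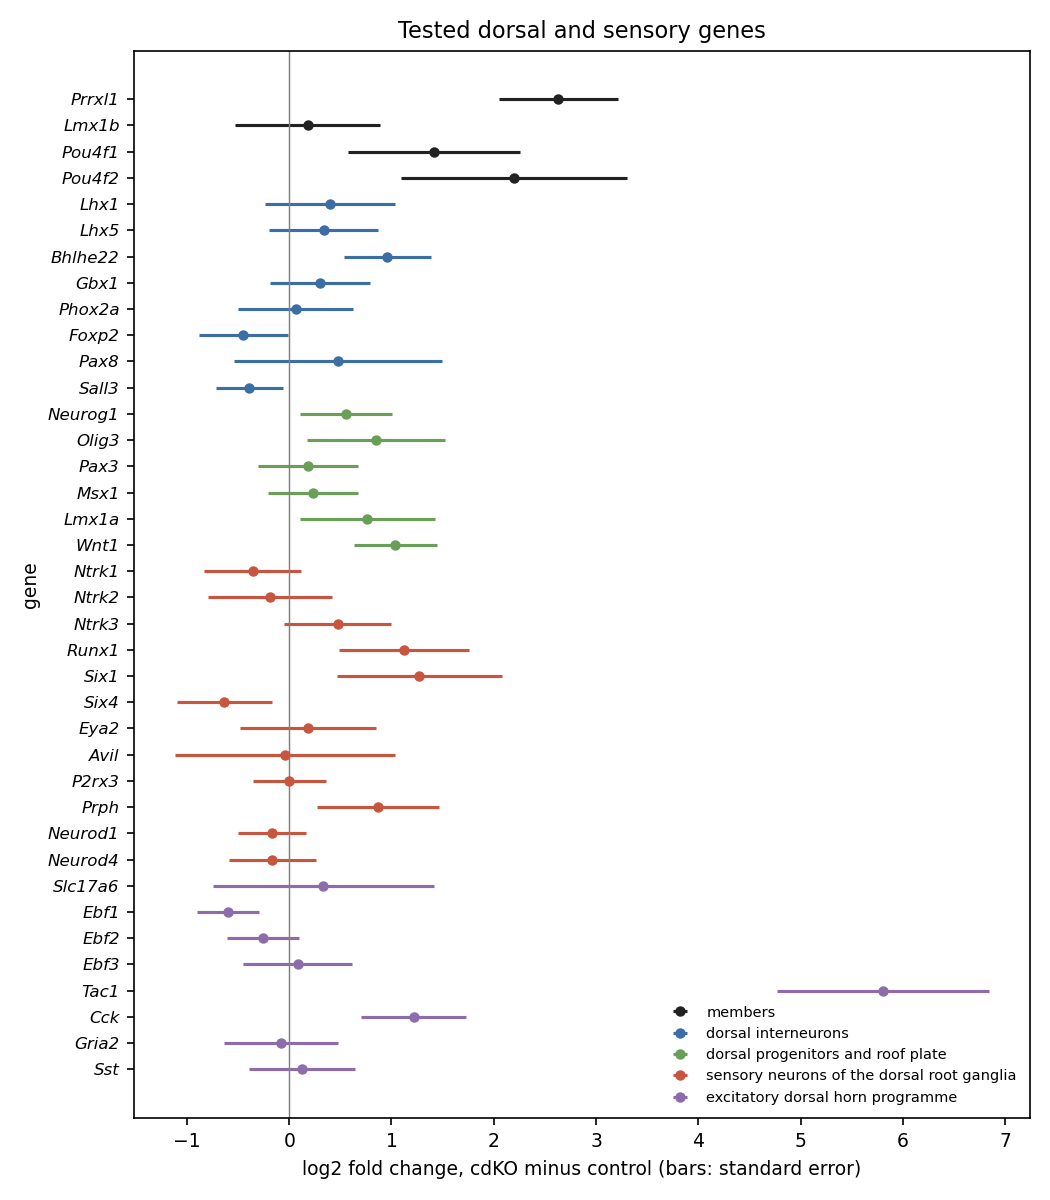
Log2 fold change, cdKO minus control, of the 4 members tested and of tested genes of 4 lists, with bars for the standard error of the edgeR fit. Tac1 (5.81) and Prrxl1 (2.63) lie farthest from 0, and no gene passed an adjusted p of 0.05.

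The sorted cells and the labels were read from a few further genes. Onecut3, another gene of the Onecut family, was at 0.330 to 0.682 CPM in controls and 0 to 0.038 CPM in cdKO samples, cdKO sample 2 included. Onecut1 had a log2 fold change of -1.11 ± 0.46 (SE), with overlapping groups. Isl1 was at 135 to 347 CPM in controls and 95.8 to 164 CPM in cdKO samples. Mnx1, a motor neuron factor, was at 29.9 to 72.6 and 33.9 to 69.6 CPM, Olig2 at 37.5 to 87.8 and 26.3 to 71.2 CPM, and Sim1, a V3 factor, at 0.148 to 4.83 and 0.666 to 3.99 CPM.

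Markers of other cells moved between samples. The 6 erythroid genes summed to 0.872 to 18.5 CPM in controls and 2.59 to 63.2 CPM in cdKO samples, and were highest in cdKO samples 5 and 3. Within groups, r with Prrxl1 was 0.12 to 0.28 for the 4 globin genes tested, and 0.87 to 0.92 without cdKO samples 1 and 4, the 2 farthest from the Prrxl1 median (unadjusted exact permutation p of 0.00556 to 0.0111). In that setting 897 of 17837 genes had an unadjusted exact permutation p under 0.05, and 0 were called. There r was also 0.84 for Lhx5 and 0.83 for Prph. The 2 samples left out, cdKO samples 1 and 4, had the highest Prrxl1, with erythroid sums of 10.4 and 2.59 CPM. The 8 mesenchyme genes summed to 4.71 to 16.1 CPM and 8.85 to 19.0 CPM, and the 7 genes of endothelium and macrophages to 4.83 to 7.76 and 4.60 to 9.87 CPM. Their part in the values of Prrxl1 was not tested.

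Windows of 300 bases around the annotated starts (RefSeq, GRCm38.p6) were searched on both strands for ATTGAT and ATCGAT, letters read by Onecut factors, and for the P3 site of paired-like homeodomain dimers. They were found in 7.54%, 0.925% and 0.487% of 32851 windows. Of the windows of 9 members, that of Tlx1 held 1 ATTGAT and the others held none of the 3, which says only that these letters are not in these windows. The Prrxl1 window, chr14:32599677-32599976, lay 3′ of Prrxl1 exon bins 1 to 3, which held counts, and the sequence before those bins was not searched. The Lmx1b window, chr2:33641049-33641348, lay outside the gene bounds given above.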

How the data were processed

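RNA-seq of 10 samples, 5 control and 5 cdKO, was analysed. The authors deposited raw counts for each exon bin without normalization, and per the labels' processing notes used bcl2fastq 2.17, Trimmomatic 0.36, STAR 2.5.2b and Subread 1.5.2 on GRCm38. Groups and replicate numbers come from the sample titles. Bins were assigned to genes of GENCODE M21 by position and summed per gene, leaving out 3996 bins (1.19% of counts) shared between genes. A sum over bins grows with the number of bins a read crosses. After filterByExpr with a minimum count of 10, libraries were scaled by TMM, and the quasi-likelihood test of edgeR 4.0.16 in R 4.3.3 was run with Benjamini-Hochberg adjustment over all genes and a threshold of 0.05. Levels are CPM on TMM-scaled library sizes, and fold changes are those of the edgeR fit. Correlations used Pearson's r and Spearman's rho on deviations from group means of log2(CPM + 0.5), with exact two-sided permutation of Prrxl1 within groups. The fits and the correlation test were tested on simulated data.

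The members and lists were chosen with earlier results of these data known, and Prrxl1 on its difference between the groups. Named genes are the members, the 5 genes most and 2 least like Prrxl1, any called gene and the 2 most abundant genes of each list used, Tac1, and Onecut1, Onecut3, Olig2, Isl1, Mnx1 and Sim1 as checks. Alternatives were other scalings, DESeq2 1.42.0, limma-voom (limma 3.58.1), no filter, other ways to sum bins, another pseudocount (2), a replicate block and each sample left out. Counting Prrxl1 on part of its exons, leaving out samples in the correlations among members, and the motif search were chosen after seeing the data. The sample descriptions number the stage differently for each sample, and the stage of the titles was used. A gene that this rule names is not reported here.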

Additional observations from a re-analysis of the deposited data

Results flagged for a closer look

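Of 40 groups of 5 samples examined, 13 held a sample far from the others by Dixon's criterion. Chance gives about 1 in 20 for normally distributed values, a shape that CPM need not have, and all 13 were the highest sample of their group. That rate also does not apply to groups mostly at 0: in 5 of the 13 the other 4 samples were all at 0, so that any count meets the criterion. The library cdKO 5 was the high one for Pou4f1 (4.19 CPM), Pou4f2 (2.97 CPM) and Barhl1 (0.0985 CPM). Control 5 was the high one for Lmx1b (0.842 CPM), Gsx2 (0.488 CPM) and the summed V3 genes (99.8 CPM), of which Nkx2-9 gave 84.5 CPM, while Sim1 was at 0.148 CPM there, its lowest level in any sample. Control 1 was the high one for Pou4f2 (0.783 CPM) and Barhl2 (0.0201 CPM). In cdKO 3, Tlx3 was at 0.135 CPM and Gsx2 at 0.0737 CPM. The other 3 rest on 1 or 2 counts: Tlx1 at 0.0227 CPM in control 3 and 0.0254 CPM in cdKO 1, and Lbx1 at 0.0114 CPM in control 3. The part of cdKO 5's lower number of covered bins in its values was not tested.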

How the results depend on the processing

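The log2 fold change of Prrxl1 was 2.33 to 3.02 over 20 alternatives, also the range when leaving out 1 sample. The number of genes called was 0 with TMM, 1 with library size only, 20 with the DESeq2 Wald test, 3 with limma-voom, 1 with no filter on low counts, and 0 to 4 when leaving out 1 sample (4 without control sample 5, 1 without cdKO sample 5). The number of members called was 0, except for 1 (Prrxl1) with the DESeq2 Wald test, which gave Pou4f1 no p. Library size alone moved the median change over all genes from -0.02 to -0.15 on the log2 scale. Leaving out 1 sample, the log2 fold change of Lmx1b was -0.083 to 1.29 (-0.061 without control sample 2, -0.083 without control sample 4, highest without control sample 5), that of Pou4f1 -0.045 to 2.07 (lowest without cdKO sample 5, highest without control sample 5) and that of Pou4f2 1.11 to 3.999 (without cdKO sample 5 and without control sample 1). The r with Prrxl1 was then -0.24 to 0.26 for Lmx1b, -0.46 to 0.12 for Pou4f1 and -0.0054 to 0.65 for Pou4f2. By ranks it was 0.10 for Lmx1b. With each gene's highest bin it was 0.39 for Lmx1b, -0.035 for Pou4f1 and 0.60 for Pou4f2. Without the 2 samples farthest from the Prrxl1 median it was 0.33 for Pou4f1. The cause was not tested. In the fit with a replicate block, log2 fold changes were 2.51 for Prrxl1, 3.04 for Pou4f2, 0.96 for Pou4f1 and 0.84 for Lmx1b, and 0 genes were called, as without it. With limma-voom it was 3.03 for Pou4f2 and 0.90 for Lmx1b. Of the 5 same-numbered pairs, 3 deviated together with r over 0.1 (-0.32 to 0.43). Best matched with their own number were 4 of 10 samples, namely samples 4 and 5 of each group (r of 0.43 and 0.36). These values do not settle whether the numbers pair the samples, and the main fit has no replicate block. For members at 3 counts or fewer, depth sets the limit.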
